A study of Mus musculus with 319 samples.

Results

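Skeletal muscle RNA of 319 F2 mice was sorted into 3 classes by 1 transcript, Nprl2. The classes were defined from the measured Nprl2 ratio itself: 82 arrays (25.7%) lay below a log2 ratio of -0.12 and form the low class, 159 (49.8%) lay between -0.12 and 0.30 and form the middle class, and 78 (24.5%) lay above 0.30 and form the high class. A split of 1:2:1 over the same number of arrays would give 79.75, 159.5 and 79.75. All arrays of the series fell in 1 of the classes. Every other probe was then fitted on the class, coded 0, 1 and 2, and genes on chromosome 9, which carries Nprl2, were separated from genes on other chromosomes. The parental strains of the cross were C57BL/6J and C3H/HeJ, each on an ApoE null background, so that all animals shared that deficiency. Both sexes were used, and all animals ate a Western diet, high in fat, between weeks 8 and 24 of age. Labelled RNA of 1 animal (Cy3) was set against a common pool of all animals (Cy5) on each array. The labels give no genotype or treatment, so the classes are groups of arrays by expression and are not genotypes. In bulk muscle, fewer cells of a type and less RNA per cell cannot be told apart.

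Nprl2 encodes a subunit of GATOR1, a complex of Depdc5, Nprl2 and Nprl3 that acts on the Rag GTPases at the lysosome. When amino acids are scarce, GATOR1 turns the Rag GTPases off and so keeps the kinase complex mTORC1 from the lysosomal surface. A second complex, GATOR2, opposes GATOR1, and amino acid sensors such as the sestrins act through it. In muscle, mTORC1 is known as a regulator of protein synthesis and fibre size. The gene lies in a gene-dense stretch of chromosome 9 that also holds the hyaluronidase genes Hyal1 and Hyal2 and the tumour suppressor gene Rassf1.

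The Nprl2 log2 ratio in the low class ran from -0.58 to -0.13 with a median of -0.37. In the middle class it ran from -0.11 to 0.30 with a median of 0.12. In the high class it ran from 0.30 to 0.85 with a median of 0.48. These ranges do not overlap because the limits set them, and no test was made on them. The class means were -0.35 ± 0.11 (SD, n = 82), 0.11 ± 0.093 (SD, n = 159) and 0.48 ± 0.10 (SD, n = 78). The step from low to middle was 0.47 log2 units and the step from middle to high was 0.37, so that the high class stood 1.79-fold above the low class. The classes held 90.0% of the variance of Nprl2. Around the lower limit, the nearest arrays lay at -0.13 and -0.11, with 12 arrays within 0.05 of it. Around the upper limit, the nearest arrays lay at 0.298 and 0.303, with 21 arrays within 0.05 of it. The upper limit therefore ran through a part of the distribution that held more arrays. A mixture of 3 equally spaced normal components with weights 1:2:1, fitted to the same values, had a spacing of 3.88 component SDs and put 98.7% of arrays in the same class. It describes the values that set the limits and is no check of them. Nprl2 was measured by 1 probe, so its ratio has no check from a second probe.

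**Figure D1:**
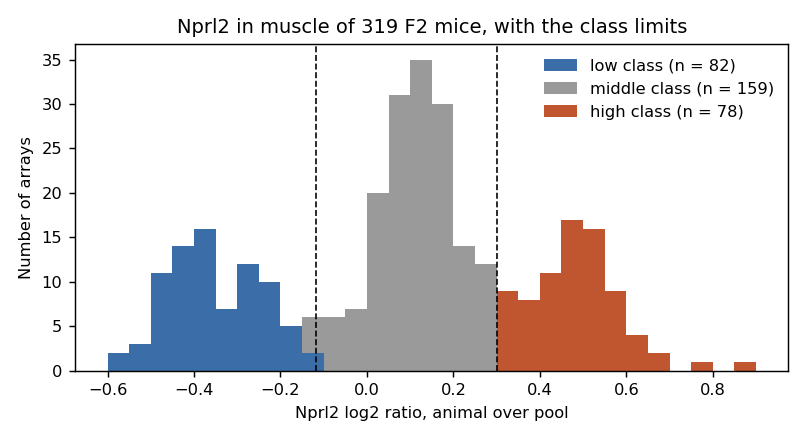
Number of arrays (vertical axis) by Nprl2 log2 ratio of animal over pool (horizontal axis, bins of 0.05), coloured by class, with dashed lines at the class limits. The low class peaks near its median of -0.37, the middle class near 0.12 and the high class near 0.48. The bin that holds the lower limit has arrays of both neighbouring classes.

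The table held 23382 probes with 0.654% of values missing, and the 23189 probes present on 80% of arrays or more were tested. The SD of log2 ratios within an array ran from 0.213 to 1.08 with a median of 0.358. A positive ratio was read as an excess of the animal's RNA over that of the pool: the Y-linked Eif2s3y split the arrays at a gap between -3.71 and -0.79 into 164 with a median of -5.62 and 155 with a median of 1.08. The labels give the dyes but not the direction of the ratio, and whether a gene moved with Nprl2 or opposite to it does not depend on that direction. Of 50721 pairs of arrays, 5078 correlated below -0.3 over all probes (r from -0.638 to 0.891, median 0.339). Ratios to a pool of the same tissue carry no absolute level, so the labelled tissue was not checked against muscle markers. The classes were not spread evenly over the animal numbers. Of the 160 arrays with numbers up to the median, 49, 76 and 35 were low, middle and high, and of the 159 above it 33, 83 and 43. The mean Nprl2 ratios of these classes were -0.379, 0.092 and 0.461 up to the median and -0.313, 0.133 and 0.504 above it. That shift was not tested. Eif2s3y had medians of 0.13, -4.16 and -4.46 in the low, middle and high classes, with a slope of -0.25 ± 0.26 log2 units per class step (SE, limma adjusted p = 0.533).

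On chromosome 9, 150 of 723 probes (20.7%) differed across the classes at an adjusted p under 0.05 (limma, Benjamini-Hochberg over all probes tested), which covered 135 of 610 genes. Of these, 72 (9.96%) moved with Nprl2, meaning higher in the high class, and 78 (10.8%) moved opposite to it. Of the probes of genes on other chromosomes, 848 of 11805 (7.18%) passed, 529 (4.48%) with Nprl2 and 319 (2.70%) opposite to it. Over all probes the share was 7.77%, with 4.90% with Nprl2 and 2.86% opposite. Among the other chromosomes the share called ran from 5.38% on chromosome 18 to 10.2% on chromosome 15, so chromosome 9 stood above all 19 of them. The contrast was wider for sizes of difference. The class accounted for over 10% of the variance of 34 chromosome 9 probes (4.70%; 27 without Rpl29) and of 8 probes elsewhere (0.0678%), and for over 25% of 15 and 2. After subtracting each array's median, 38.2% of the calls on other chromosomes moved with Nprl2, against 62.4% as given. On chromosome 9 the shares were 38.3% and 48%. No direction is therefore drawn from these splits.

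The share of probes called on chromosome 9 was higher up to 50 places from Nprl2 in gene order than beyond, apart from the fall at 26 to 50 places when Rpl29 is left out. Among the protein-coding genes 1 to 10 places away it was 4 of 12 probes (33.3%), and 11 to 25 places away it was 7 of 20 (35%). It was 18 of 41 (43.9%) at 26 to 50 places, where the many probes of Rpl29 lie, and 5 of 23 (21.7%) there without Rpl29. Farther out the share was 22.4% at 51 to 100 places, 25.2% at 101 to 200 and 19.5% at 201 to 400. Beyond 400 places it was still 44 of 298 (14.8%), against 7.18% on other chromosomes. In the same order, the class accounted for over 10% of the variance of 1, 2, 7, 3, 11 and 7 probes up to 400 places away and of 2 probes beyond, and the 7 at 26 to 50 places were all probes of Rpl29. These shares are descriptions, since linked genes are not independent of each other.

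**Figure D2:**
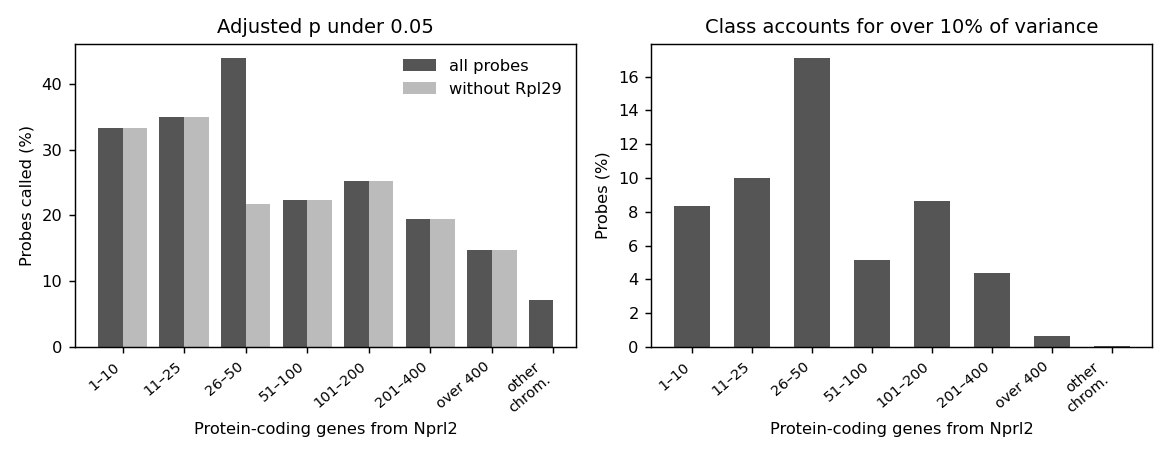
Left, percent of probes called at an adjusted p under 0.05 by distance from Nprl2, counted in protein-coding genes on chromosome 9, with all probes in dark bars and without Rpl29 in light bars; the last bar is genes on other chromosomes. Right, percent of probes for which the class accounted for over 10% of the variance. Left, the dark bars rise from 33.3% at 1 to 10 genes to 43.9% at 26 to 50, where Rpl29 lies, and range from 25.2% to 14.8% farther out, against 7.18% elsewhere.

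Hyal1, which encodes a lysosomal enzyme that degrades hyaluronan, was the gene nearest to Nprl2 for which the class accounted for over 25% of the variance (29.6%). Its 250 bases before the transcription start are shown because it is the near neighbour that moved most clearly with Nprl2 (RefSeq, GRCm38.p6, chr9:107576700-107576949, plus strand); capitals mark CCAAT on the opposite strand (ATTGG) and GGGCGG on the opposite strand (CCGCCC, found in 2 overlapping copies).
Hyal1: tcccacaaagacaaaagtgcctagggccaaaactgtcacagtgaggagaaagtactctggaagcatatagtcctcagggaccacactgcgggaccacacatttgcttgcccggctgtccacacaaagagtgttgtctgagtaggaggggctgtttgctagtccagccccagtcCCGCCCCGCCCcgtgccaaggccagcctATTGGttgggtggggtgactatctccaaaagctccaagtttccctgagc
Searched on both strands, CCAAT occurred in 33.8% and GGGCGG in 32.7% of 32817 windows of the same length. A match describes these letters only. The Hyal1 log2 ratio ran from -0.41 to 0.24 in the low class with a median of -0.06, from -0.42 to 0.62 in the middle class with a median of 0.06, and from -0.24 to 0.59 in the high class with a median of 0.20. The classes stepped upward but overlapped: 3 low arrays lay above the high class's median and 4 high arrays lay below the low class's median. Its slope was 0.13 ± 0.012 log2 units per class step (SE, n = 319; limma adjusted p = 5.83e-23), a 1.20-fold difference between the high and low classes.

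The other close neighbours were weaker or did not pass. After Nprl2 in gene order, Zmynd10, needed to assemble the dynein arms of cilia, had a slope of 0.05 ± 0.014 (adjusted p = 0.0215). Its means in the low, middle and high classes were 0.064, 0.057 and 0.165, so its middle class did not lie above the low class. Rassf1, a Ras-association scaffold, had a slope of 0.09 ± 0.019 (adjusted p = 0.000194), with class means of -0.06, 0.04 and 0.13. Hyal2, a membrane-anchored hyaluronidase, had a slope of 0.06 ± 0.014 (adjusted p = 0.00204). All 3 moved with Nprl2 and explained less than Hyal1: the class accounted for 3.65%, 7.15% and 5.59% of their variance. Among animal numbers above the median the 3 lost their call (adjusted p = 0.450, 0.538 and 1), with slopes of 0.06, 0.08 and 0.02. Zmynd10 was not called among the lower numbers either (slope 0.03, adjusted p = 0.191). Naa80, which acetylates actin, and Sema3b, a secreted guidance factor, did not pass (adjusted p = 0.811 and 0.193). None of the 6 nearest measured genes before Nprl2 passed. Cyb561d2, a cytochrome b561 family member whose gene model shares 17 bases with that of Nprl2, had medians of -0.02, 0.07 and 0.06 in the low, middle and high classes and a slope of 0.04 ± 0.015 (adjusted p = 0.0652). It passed with the first principal component of the arrays as a covariate (adjusted p = 0.00316). Tmem115, a Golgi membrane protein, had a slope of 0.03 (adjusted p = 0.0527), and Dock3, a Rac exchange factor, had a slope of 0.03 (adjusted p = 0.0773). Cacna2d2, a calcium channel subunit, Dcaf1, a ubiquitin ligase adaptor, and Cish, a cytokine signalling inhibitor, had adjusted p values of 0.349, 0.243 and 0.723.

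Of the 48 genes listed for the region around Nprl2, 30 were measured by 36 probes. Of these probes 6 moved with Nprl2, 3 moved opposite to it and 27 did not pass, so that 25% were called, near the 20.7% of all chromosome 9 probes. The median slope was 0.02, against 0.01 over all probes. Besides Gnai2 and the genes above, Rbm6, an RNA-binding splicing regulator, rose on 1 of its 3 probes (0.04 ± 0.0091 per step, adjusted p = 0.00563), and Rnf123, a ubiquitin ligase, on 1 of 2 (0.09 ± 0.023, adjusted p = 0.00781). Rbm5, another splicing regulator, moved opposite to Nprl2 (-0.05 ± 0.016, adjusted p = 0.0319), as did Traip, a ubiquitin ligase of the replication machinery (-0.08 ± 0.022, adjusted p = 0.0176). These 4 genes lost their call among animal numbers above the median (adjusted p from 0.283 to 1), where the slopes of Rbm6, Rnf123, Rbm5 and Traip were 0.03, 0.03, -0.01 and -0.09. Traip was not called among the lower numbers either (slope -0.05, adjusted p = 0.237). Calls of both directions were thus found in the close neighbourhood of Nprl2.

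The smallest adjusted p on the chromosome was that of Rpl29, a protein of the large ribosomal subunit, with 26 protein-coding genes between it and Nprl2 on the side before it. Its best probe ran from -0.27 to 0.68 in the low class with a median of 0.32, from -0.82 to 0.37 in the middle class with a median of -0.08, and from -1.47 to 0.20 in the high class with a median of -0.64. No low array lay below the median of the high class and no high array lay above that of the low class. The slope was -0.46 ± 0.018 (adjusted p = 7.96e-79), the low class stood 1.90-fold above the high class, and the class accounted for 68.9% of the variance. The gene has 18 probes that disagreed: 11 moved opposite to Nprl2, 2 moved with it and 5 did not pass, with slopes from -0.46 to 0.15. Rpl29 belongs to a family with many near-identical copies in the genome, so which copy each probe measured is uncertain.

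Among the genes placed on chromosome 9, the one with the smallest adjusted p that moved with Nprl2 was Clasp2. Plscr2, Itga9, Rab3d and Hyal1 followed among the 15 strongest there. Clasp2, which binds growing microtubule ends, lies 128 genes past Nprl2. Its ratio ran from -0.66 to 0.31 in the low class with a median of -0.32, from -0.56 to 0.58 in the middle class with a median of 0.11, and from -0.12 to 0.80 in the high class with a median of 0.43. The end classes overlapped in their tails only, and no array of either passed the other's median. The slope was 0.33 ± 0.016 (adjusted p = 5.45e-58), a 1.59-fold difference. Plscr2, a phospholipid scramblase family member, had class medians of -0.46, 0.01 and 0.37 and a slope of 0.35 ± 0.029 (adjusted p = 1.11e-25), with 1.63-fold more in the high class. Itga9, an integrin alpha chain, had class medians of -0.14, 0.07 and 0.23 and a slope of 0.18 ± 0.014 (adjusted p = 1.18e-28). Rab3d, a small GTPase of secretory vesicles, lies 796 genes before Nprl2, yet its class medians of -0.02, 0.07 and 0.16 stepped evenly (slope 0.09 ± 0.0075, adjusted p = 1.04e-25). Cmtm8, a MARVEL-domain membrane protein, moved the other way, with medians of 0.15, -0.05 and -0.27 (slope -0.20 ± 0.018, adjusted p = 2.74e-21).

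**Figure D3:**
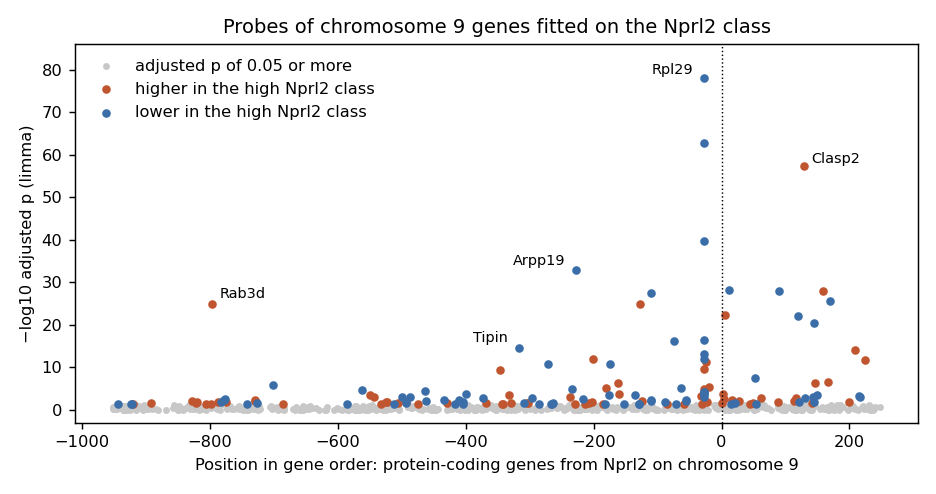
Each point is 1 probe of a chromosome 9 gene, placed by its position in the order of protein-coding genes with Nprl2 at 0 (horizontal axis) and by the -log10 of its limma adjusted p (vertical axis). Red points moved with Nprl2, blue points opposite to it, and grey points had an adjusted p of 0.05 or more. Rpl29 and Clasp2 stand highest, and Rab3d stands alone far to the left.

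Arpp19, an inhibitor of the phosphatase PP2A during mitosis, moved opposite to Nprl2 and ran from -0.22 to 0.64 in the low class with a median of 0.17, from -0.60 to 0.60 in the middle class with a median of -0.03, and from -0.67 to 0.28 in the high class with a median of -0.36. The low class was higher at its lowest, median and highest value, though 2 of the high arrays lay above the low median. Its slope was -0.24 ± 0.017 (adjusted p = 1.49e-33), a 1.41-fold difference. Cdc25a, a phosphatase that activates cyclin-dependent kinases, had class medians of 0.08, -0.17 and -0.50 (slope -0.30 ± 0.023, adjusted p = 8.53e-29). Tipin, which protects replication forks, had medians of 0.10, -0.05 and -0.33 (slope -0.22 ± 0.024, adjusted p = 2.41e-15). Rnf7, the RING subunit of cullin ubiquitin ligases, had medians of 0.21, 0.00 and -0.19 (slope -0.17 ± 0.013, adjusted p = 2.78e-28), but its other probe did not pass (-0.05, adjusted p = 0.325).

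Gnai2, Ccrl2, Il20rb and Acaa1a also moved opposite to Nprl2. Gnai2, an inhibitory G protein alpha subunit close to Nprl2 with 10 genes between, had class medians of 0.06, -0.05 and -0.19 on its best probe (slope -0.13 ± 0.0099, adjusted p = 6.36e-29). Its other probe showed no such step (0.0035, adjusted p = 0.955), so the probes of Gnai2 disagree. Ccrl2, a chemerin-binding receptor, had medians of 0.17, 0.03 and -0.17 (slope -0.17 ± 0.015, adjusted p = 6.69e-23). Il20rb, a receptor chain for cytokines of the interleukin 20 group, had medians of 0.22, 0.01 and -0.15 (slope -0.19 ± 0.019, adjusted p = 5.03e-17). Acaa1a, a thiolase of peroxisomal fatty acid oxidation, had medians of 0.15, -0.01 and -0.22 (slope -0.18 ± 0.014, adjusted p = 3.08e-26). These 15 strongest genes kept their direction and their call under all 16 alternative settings. The low and high classes overlapped in range for each of them.

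**Figure D4:**
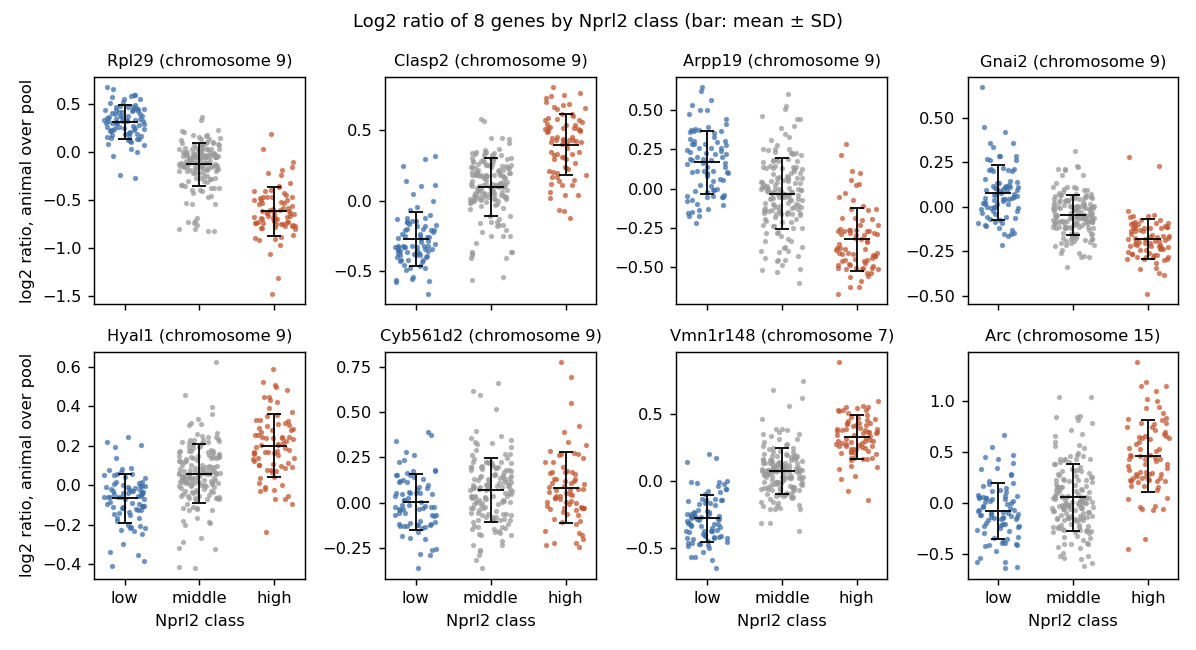
Log2 ratio of animal over pool (vertical axes) by Nprl2 class (horizontal axes) for 8 genes, 1 point per array, with bars for the mean ± SD of each class. Rpl29, Arpp19 and Gnai2 step down from low to high, Clasp2, Hyal1, Vmn1r148 and Arc step up, and Cyb561d2 differs little between the middle and high classes.

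On other chromosomes the class accounted for a similar share of variance in few genes. The strongest was Vmn1r148 on chromosome 7, a member of the vomeronasal receptor family, which has many near-identical copies, so its identity here is uncertain. It ran from -0.65 to 0.20 in the low class with a median of -0.29, from -0.37 to 0.75 in the middle class with a median of 0.08, and from -0.14 to 0.89 in the high class with a median of 0.33. No array of either end class passed the median of the other. The slope was 0.30 ± 0.014 (adjusted p = 1.75e-63) and the class accounted for 61.0% of the variance. Its other probes had slopes of 0.03 (adjusted p = 0.0422) and -0.04 (adjusted p = 0.406), far from the first. Arc on chromosome 15, a cytoskeleton-associated protein induced by activity in neurons, had medians of -0.10, 0.01 and 0.43 (slope 0.27 ± 0.026, adjusted p = 5.22e-19). Its middle class lay near the low class, although the departure from even spacing did not pass (adjusted p = 0.403).

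The rest of the 10 genes elsewhere with the smallest adjusted p had smaller slopes than Vmn1r148 and Arc. Letm1 on chromosome 5, an ion exchanger of the mitochondrial inner membrane, had medians of 0.14, 0.01 and -0.12 (slope -0.10 ± 0.012, adjusted p = 3.65e-14). Ensa on chromosome 3, a PP2A inhibitor closely related to Arpp19, moved opposite to Nprl2 as Arpp19 did, with medians of 0.13, 0.02 and -0.11 (slope -0.13 ± 0.016, adjusted p = 2.01e-12). Vamp5 on chromosome 6, a vesicle protein of muscle, had medians of -0.03, 0.15 and 0.26 (slope 0.17 ± 0.020, adjusted p = 4.33e-13), while its other probe did not pass (-0.01, adjusted p = 0.827). Avp on chromosome 2, the vasopressin precursor, and Plagl2 on chromosome 2, a zinc finger transcription factor, had slopes of 0.08 (adjusted p = 1.56e-08) and 0.06 (adjusted p = 5.15e-07). Endog on chromosome 2, a mitochondrial nuclease, and Maneal on chromosome 4, of the endomannosidase family, had slopes of 0.10 (adjusted p = 9.44e-06) and 0.15 (adjusted p = 1.08e-05). Speer3 on chromosome 5, of a multicopy family of rodents, had a slope of 0.10 (adjusted p = 2.26e-06) on 1 of 2 probes. Of these 10 genes, Avp, Plagl2, Speer3 and Endog lost their call among animal numbers above the median (adjusted p = 0.0571, 0.128, 0.286 and 1), with slopes of 0.06, 0.05, 0.08 and 0.05.

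How far the calls held under other settings differed between the places. Of the 150 calls on chromosome 9, 36 (24%), in 29 genes, kept direction and call under the 15 alternative settings that tested all of these probes. Of the 848 on other chromosomes, 6 (0.708%) did, and these were Arc, Ensa, Letm1, Maneal, Vamp5 and Vmn1r148. The widest contrast was by animal number. With numbers up to the median, 239 probes on chromosome 9 (33.1%) and 2829 elsewhere (24.0%) were called, against 40 (5.53%) and 9 (0.0762%) above the median. The slope of Rpl29 was -0.46 on both sides, that of Clasp2 0.31 and 0.36, and that of Vmn1r148 0.31 and 0.30. Entering the Nprl2 ratio itself in place of the class raised the share called to 53.5% on chromosome 9 and 45.5% elsewhere.

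**Figure D5:**
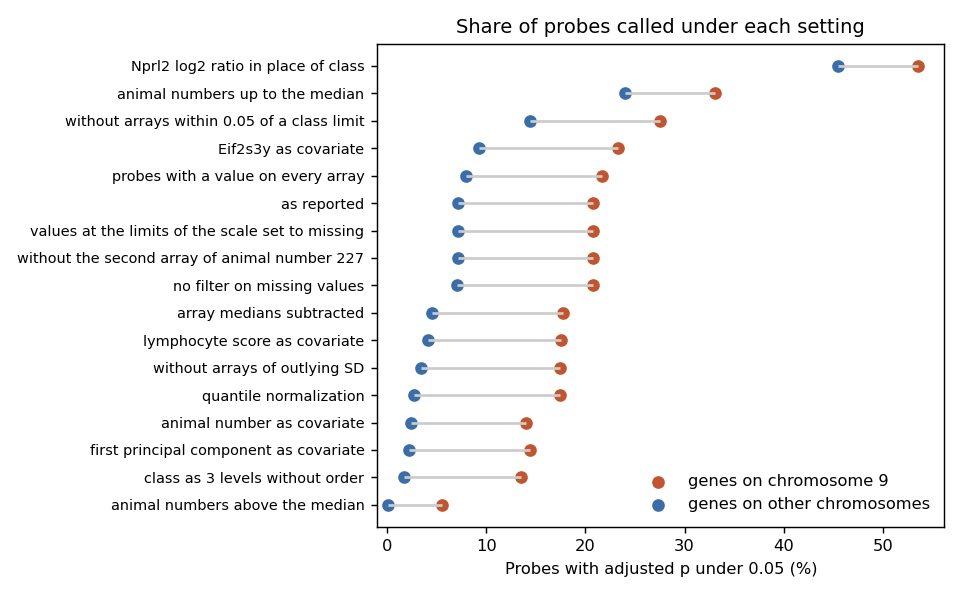
Percent of probes called at an adjusted p under 0.05 (horizontal axis) under each setting (rows, ordered by the share on other chromosomes), for genes on chromosome 9 (red) and on other chromosomes (blue). The red point lies to the right of the blue point under every setting, from 5.53% against 0.0762% with animal numbers above the median to 53.5% against 45.5% with the Nprl2 ratio itself.

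For 1795 of the 1801 called probes the mean of the middle class lay between those of the low and high classes. Among the probes not called it did so for 57.5%, and Naa80, for one, had means of 0.11, 0.09 and 0.12. Probes were called by a slope over the ordered classes, which favours those with a middle mean between the means of the end classes. The contrast between called and uncalled probes therefore cannot show that the middle class was intermediate. A limma term for the departure of the middle class from the midpoint passed for 3 of 23189 probes (0.0129%). These were probes 10024412219, 10024403096 and 10024403588 (adjusted p = 1.26e-05, 0.000888 and 8.47e-09), and none of the 3 has a gene position in the annotation used here. The term did not pass for Rpl29, Clasp2 or any other gene named above, which does not show that their classes were evenly spaced.

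Probes without a placed gene included those for which the coded class accounted for the largest shares of variance. Of 10661 such probes, 803 (7.53%) were called, 536 (5.03%) with Nprl2 and 267 (2.50%) opposite, and the class accounted for over 10% of the variance of 51 of them. Probe 10024412219 had class medians of -0.69, 0.15 and 0.69 and a slope of 0.66 ± 0.016 (adjusted p = 8.21e-126). The coded class accounted for 84.3% of its variance. Probe 10024403096 had medians of -0.76, 0.19 and 0.74 and a slope of 0.70 ± 0.022 (adjusted p = 9.88e-99). In the opposite direction, probe 10024399554 had medians of 0.24, -0.02 and -0.35 (slope -0.28 ± 0.011, adjusted p = 6.81e-73), and probe 10024405991 had medians of 0.31, -0.02 and -0.47 (slope -0.36 ± 0.015, adjusted p = 3.49e-72). These 4 carry no gene name and were not placed here. Probes 10024399309 and 10024409053 carry the symbols 2900079G21Rik and DCLK3 but were not matched to a placed gene. They moved with Nprl2, with slopes of 0.88 ± 0.039 (limma adjusted p = 1.9e-64) and 0.79 ± 0.037 (adjusted p = 6.19e-59). Both adjusted p values were smaller than that of Clasp2.

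The 3-component mixture was also fitted to each other probe, and the classes it gave were set beside those of Nprl2. Probe 10024412219 put 298 of 319 arrays (93.4%) in the class that Nprl2 gave them, where the class sizes alone would give 37.8%. For probe 10024403096 the share was 92.5%, and for the opposite probes 10024405991 and 10024399554, with the order turned, it was 82.8% and 81.8%. No named gene on chromosome 9 gave a second set of 3 filled classes. The mixture criterion was met by 9 probes there, but each left at most 1 array in an outer class, so they say nothing about agreement with the Nprl2 classes. On other chromosomes 126 probes met it, and 32 of them had at least 20 arrays in each class. These 32 put 28.5% to 44.8% of arrays in the class of Nprl2, with a median of 39.7%. Their shares differed from those given by their class sizes by -1.54 to 6.01 percentage points, and the highest difference was that of Gpr19, an orphan G protein-coupled receptor gene on chromosome 6.

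The genes that act with Nprl2 in amino acid sensing, in this paragraph and the next, had slopes from -0.04 to 0.05. Of the GATOR1 partners only Depdc5 was measured, and neither of its probes passed (0.03 ± 0.015 and 0.01 ± 0.010, adjusted p = 0.213 and 0.686). Of the 3 measured GATOR2 genes, 1 passed in limma (33.3%, against 7.77% of all probes). At an unadjusted p under 0.05 there were 2 (66.7%, against 27.7% of all probes). Wdr24 passed with a slope of 0.04 ± 0.014 (adjusted p = 0.0464), with class medians of 0.07, 0.09 and 0.16 and wide overlap. Mios and Wdr59 did not (adjusted p = 0.340 and 0.131). Wdr24 kept its call in 7 of 16 alternatives and lost it, for example, with array medians subtracted.

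Among the sensors and KICSTOR, which tethers GATOR1 to the lysosome, 5 genes were measured and 0 passed in limma, with 1 at an unadjusted p under 0.05, where 27.7% of all probes lay. Kptn of KICSTOR was that gene (0.03 ± 0.011, adjusted p = 0.0577). The sestrins Sesn1, Sesn2 and Sesn3, leucine-binding partners of GATOR2, had adjusted p values of 0.560, 0.233 and 0.368, and Castor2, of the arginine sensor family, had 0.394. Of 9 measured genes of the Rag GTPases, the Ragulator and their activators, 2 passed in limma (22.2%, against 7.77% of all probes). The share at an unadjusted p under 0.05 was also 22.2%, against 27.7% of all probes. Lamtor4, a Ragulator subunit, moved with Nprl2 (0.05 ± 0.018, adjusted p = 0.0482) and Rragc, a Rag GTPase, opposite to it (-0.04 ± 0.013, adjusted p = 0.0327). Rraga, Rragb, Rragd, Lamtor2, Lamtor3, Fnip1 and Fnip2 did not pass (adjusted p from 0.212 to 0.993). Lamtor4 was called in 8 of 16 alternatives and Rragc in 10. Both calls were lost among animal numbers above the median, where the slopes of Lamtor4 and Rragc were -0.0076 and -0.0024.

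None of the 16 probes of 12 genes of mTORC1, its inhibitor TSC and its substrates passed in limma at an adjusted p under 0.05, against 7.77% of all probes. At an unadjusted p under 0.05 there were 10 (62.5%), against 27.7% of all probes. Several of these were probes of the same gene, Rps6 or Mlst8, and the directions differed. The Rps6 probes had slopes from -0.058 to -0.049, while Tsc1, Tsc2, Mlst8, Ulk1 and Rps6kb2 had positive slopes. The lowest adjusted p was 0.0566 (Tsc1, slope 0.03 ± 0.011). Mtor, the kinase itself, had a slope of 0.01 ± 0.014 (adjusted p = 0.520), and the substrate Eif4ebp1 had 0.00055 ± 0.026 (adjusted p = 0.991). Of 7 measured genes among Atf4, which encodes a transcription factor that answers amino acid shortage, and its targets, 2 (28.6%, against 7.77% of all probes) moved opposite to Nprl2. Asns, which makes asparagine, had class medians of -0.24, -0.36 and -0.46 and a slope of -0.15 ± 0.038 (adjusted p = 0.00699), and Mthfd2, of mitochondrial folate metabolism, had a slope of -0.06 ± 0.021 (adjusted p = 0.0417). Of 17 probes of autophagy and lysosome genes, Lamp2, a lysosomal membrane protein, was the only one called (-0.07 ± 0.023, adjusted p = 0.0363), a share of 5.88%, near the 7.77% of all probes. Asns lost its call among animal numbers above the median (slope -0.07, adjusted p = 1), and Mthfd2 and Lamp2 each lost theirs in 7 of 16 alternatives.

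The lists of muscle genes and of markers of other cells held 2 to 62 probes each, so that 1 call makes a large share of the short ones. Over all probes 7.77% were called in limma, and 27.7% had an unadjusted p under 0.05. Of 4 measured genes of oxidative phosphorylation, Ndufv1, a complex I subunit, moved with Nprl2 (0.08 ± 0.016, adjusted p = 0.000356). In limma 0 of 62 probes of glycolysis genes and 0 of 5 slow fibre genes passed. At an unadjusted p under 0.05 there were 5 (8.06%) and 0, and the median slope of the slow fibre genes was -0.15. Of 4 adipocyte markers, Plin1, which coats lipid droplets, and Scd1, a fatty acid desaturase, were lower in the high class (-0.19 ± 0.058 and -0.20 ± 0.063, adjusted p = 0.0283 and 0.0309). Of 6 neutrophil markers, S100a8 was lower (-0.29 ± 0.092, adjusted p = 0.0363), 5 (83.3%) had an unadjusted p under 0.05, and the median slope was -0.29. Camp, Ltf and Ngp, which are among those 5, lie on chromosome 9, as Nprl2 does. Of 4 keratinocyte markers, Krt1 was higher (0.04 ± 0.013, adjusted p = 0.0243), while Krt14, Krt5 and Lor, with slopes of -0.04, -0.0015 and -0.02, did not pass. The 9 probes of lymphocyte markers, the 9 of macrophage markers, the 3 of erythroid markers and the 2 of nerve markers had 0 calls in limma, with 0, 3, 0 and 1 at an unadjusted p under 0.05. The median slope was -0.16 for lymphocyte and -0.07 for macrophage markers. Of the lymphocyte markers, Cd3d, Cd3e and Cd3g also lie on chromosome 9 and are part of the lymphocyte score described below. The calls of Ndufv1, Plin1, Scd1, S100a8 and Krt1 were lost among animal numbers above the median (adjusted p = 1 for each), with slopes of 0.03, -0.13, -0.07, -0.31 and 0.0099, so that the slope of S100a8 was not smaller there. The lymphocyte score, a mean of z-scored ratios of 8 of the 10 listed genes, averaged 0.068 in the low class, 0.034 in the middle class and -0.14 in the high class. It ranged from -0.85 to 2.54, from -0.97 to 3.21 and from -0.82 to 2.68. With that score as a covariate, 127 probes on chromosome 9 (17.6%) and 490 on other chromosomes (4.15%) were called.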

How the data were processed

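The labels describe 2-colour arrays of F2 muscle against a pool. The authors deposited 1 log10 ratio per probe and array, and the scale was derived from values that end at exactly -2 and 2; no source used here names the background correction or normalisation. Ratios were converted to log2. Names and gene order came from RefSeq (GRCm38.p6) through the platform table, for 12647 probes of 10831 genes. The gene IDs of 992 probes were not matched, and 48 probes with several symbols were left unnamed. No source used here names the genome build of the array design. Gene order counted the 1201 protein-coding genes of chromosome 9.

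For probes with values on at least 80% of arrays, limma 3.58.1 in R 4.3.3 fitted the log2 ratio on class without covariates, with Benjamini-Hochberg adjustment over all probes and a threshold of 0.05. The fits were tested on simulated data with independent normal noise for each probe and array. Arrays and probes of these data are correlated, so the simulations do not measure the rate of false calls here. A gene with several probes was named by its smallest p. Named genes were the 15 strongest on chromosome 9, the 6 nearest measured on each side, the 10 strongest elsewhere, every measured gene of the amino acid sensing lists and other list members past the threshold. The unplaced probes named, Gpr19 and the minimum of 20 arrays per class were chosen after their values were seen. The members and lists were chosen with earlier results of these data known. Each array was treated as 1 animal, although number 227 appears on 2 arrays, and 1 title and source name disagree on a number (the latter was used). The design names 319 mice and the descriptions 330. The number of arrays limits the precision. Alternatives changed scaling, covariates, class coding, filters and the arrays used; a gene-averaged fit was added after seeing the data.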

Additional observations from a re-analysis of the deposited data

How the results depend on the processing

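No paired analysis was possible because the labels put all arrays in 1 group, so no groups share replicate numbers. The counts of called probes (1801 in all, 150 on chromosome 9 and 848 elsewhere) moved as follows, in that order. With array medians subtracted they were 1157, 128 and 537, with quantile normalization 793, 126 and 325, with the first principal component 640, 104 and 266, with the lymphocyte score 1068, 127 and 490, and with animal number 685, 101 and 286. With the class as 3 levels without order they were 514, 98 and 201, and with the Nprl2 ratio in place of the class 10363, 387 and 5366. Without the 33 arrays within 0.05 of a limit they were 3517, 199 and 1707, and without the 9 arrays of outlying SD 944, 126 and 405. For animal numbers up to the median they were 5637, 239 and 2829, and above it 107, 40 and 9. The cause was not tested. The other 5 planned settings stayed within 1.5 times, and averaging the probes of a gene gave 125 of 610 genes on chromosome 9 (20.5%) and 739 of 10144 elsewhere (7.29%). The share called was higher on chromosome 9 under each setting, by 1.18 to 72.6 times. Over the 66 named genes, 943 values kept their direction and side of the threshold or were uncalled in both fits, 88 lost and 21 gained a call, and 1 reversed (Lamtor4, -0.0076 with animal numbers above the median). The labels give no batch, so none could be fitted, and no array carries a measured genotype.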
